A study of Mus musculus with 16 samples.

Results

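The splenic natural killer (NK) cells described here are 232 of the 8686 cell barcodes in 4 single-cell RNA libraries of CD45+ cells (white blood cells) sorted from mouse spleen. They were chosen by UMI counts, where a UMI (unique molecular identifier) stands for 1 captured RNA molecule: at least 1 UMI of Ncr1, Klrb1c and Klre1 together, 0 of Cd3e, Cd3d and Cd3g, 0 of Cd79a, and at most 3 of Lyz2. The same gate selected 642 NK cells in 4 libraries of CD45+ cells from tumors, and the 8 libraries hold 17769 barcodes in all.

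The study asked how loss of Aire, which drives display of tissue antigens in the thymus and so the removal of self-reactive T cells, bears on anti-tumor immunity under PD1 blockade. Aire+/+ and Aire-/- mice of C57BL/6 strain background, littermates obtained at 8 weeks of age, carried subcutaneous MC38 tumors, a colon adenocarcinoma line from the same strain, and received either anti-PD1 or an isotype control antibody. Spleens and tumors were taken on day 19 and pooled from several mice, with 1 CD45+ library per condition and tissue, so the animals behind a library are not separable, and splenic levels are compared between conditions as a description. By the paper's flow cytometry methods, spleens were dispersed mechanically and tumors were digested with enzymes. Its single-cell methods state only that suspensions of cells were made. Tissue and handling cannot be told apart in any value that sets spleen against tumor. The 8 further libraries of sorted CD8+ cells were not used.

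NK cells are innate lymphocytes that kill infected or transformed cells by releasing perforin and granzymes, and they secrete interferon gamma and chemokines. In the mouse their activity is set by activating and inhibitory receptors, many of them of the Ly49 family encoded by the Klra genes, which read class I histocompatibility molecules on other cells. In the spleen they mature from cells with surface CD27 to cells with CD11b (Itgam) and KLRG1, and the sphingosine phosphate receptor S1PR5 guides them out of tissue into blood.

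Values for the 4 conditions are given throughout in the order Aire+/+ isotype, Aire+/+ anti-PD1, Aire-/- isotype, Aire-/- anti-PD1. The gate took 81 of 2119, 49 of 2117, 52 of 2048 and 50 of 2402 splenic barcodes. Their UMIs summed to 331526, 222931, 267520 and 222310, and those of the tumor NK cells to 1574337, 1649613, 1881343 and 3313801. The median splenic NK cell had 3677, 3988, 4301.5 and 4151 UMIs from 1704, 1799, 1845 and 1851 genes, with 2.91, 2.78, 2.45 and 2.21% of UMIs mitochondrial. The 4 splenic libraries were of like depth, while tumor NK cells, with medians of 9634, 8785, 8686 and 9103 UMIs, were deeper in every condition. Because the gate asks for a count of 0 of several genes and for 1 of others, it depends on depth. Of the 28 pairs of the 8 libraries, each shared between 3 and 16 barcode sequences, and 1 barcode in all was an NK cell in both libraries of a pair.

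The gate's own genes are given as a description. Levels here and below are in CPM, the share of a gene in all UMIs of the summed gated cells of a library, scaled to 1000000. Ncr1, the gene of the activating receptor NKp46, stood at 1493, 1323, 1641 and 1871 CPM in spleen and 412, 321, 386 and 382 in tumor. Klrb1c, the gene of NK1.1, stood at 1415, 1350.2, 1413 and 1282 in spleen and 349, 404, 379.5 and 349 in tumor. Klre1, the gene of a lectin-like receptor of NK cells, stood at 823, 628, 789 and 972 in spleen and 215, 262, 291 and 295 in tumor. All 3 were higher in each splenic library than in any tumor library. Just inside the gate, 2, 2, 0 and 1 splenic cells had a single UMI of the 3 genes and none had 2, while 79, 47, 51 and 48 had more than 3, with medians of 15, 14, 17 and 17. Just outside it, 3, 2, 5 and 5 splenic barcodes with a UMI of the 3 genes missed it by 1 Cd3 UMI, and 39, 41, 46 and 66 by more. Applied in turn to the barcodes with a UMI of the 3 genes, the Cd3 condition removed 43, 44, 51 and 74. The Cd79a condition then removed 4, 1, 3 and 5 barcodes and the Lyz2 condition 1, 0, 2 and 2. At the other edge, 2, 1, 1 and 1 of the cells kept had any Lyz2 UMI.

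Markers outside the gate fit the NK label. The 10 genes of the NK identity list outside the gate summed to 16195, 15121, 16212 and 19082 CPM in the splenic NK cells and to 1724, 1223, 1285 and 923 CPM in all other splenic barcodes. Its most abundant gene, Nkg7, which encodes a protein of cytotoxic granules, stood at 4690.4, 3880.1, 4179 and 4894 CPM. Every one of the 4 libraries had the list far above its other barcodes. Fcer1g, which encodes a signaling chain of activating receptors, was found in all 232 cells, and 2, 3, 0 and 0 cells had no Nkg7 UMI.

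Lists of markers of other lineages were all lower than the NK list in the splenic NK cells, and only some of them were near 0. Of 12 T cell markers, Trac, Trbc1, Trbc2 and Trdc have no row in the tables, the 3 Cd3 genes are 0 by the gate, and Cd8a, Cd8b1 and Cd5 had no UMI in any of the 4 libraries. The T cell costimulatory receptor gene Cd28 was the most abundant T list gene at 42.2, 44.9, 56.1 and 36.0 CPM, with a summed list level of 42.2, 67.3, 56.1 and 36.0. The 10 B cell markers summed to 1378, 1610.4, 452 and 279 CPM against 27006, 26214, 27015 and 31168 in the other splenic barcodes. Their most abundant gene was Cd74, the invariant chain of class II histocompatibility molecules, in the first 3 libraries, at 1225, 1453 and 273 CPM, and Ighm, the immunoglobulin mu heavy chain, at 193 CPM in the Aire-/- anti-PD1 library. The B list was highest in the 2 Aire+/+ libraries. Of 11 monocyte and macrophage markers, which summed to 1191, 1032, 889.7 and 891 CPM, Ly6c2, a surface antigen also found on NK cells, made up 1170.4, 1005, 871 and 882, and C1qb, C1qc, Ms4a7, Fcgr1 and Ear2 were 0 in all 4. The 8 dendritic cell markers summed to 1044, 475, 475 and 189 CPM, with Cst3 (cystatin C) the most abundant in the first library at 730.0. The 6 ILC2 and ILC3 markers summed to 87.5, 161, 101 and 130.4 CPM, of which Gata3, a transcription factor that NK cells also express, was 87.5, 148, 101 and 130.4. The 6 neutrophil markers summed to 0, 0, 3.74 and 0, the 5 basophil and mast cell markers to 0, 0, 3.74 and 8.996, and the 6 erythroid and platelet markers to 9.05, 4.49, 0 and 0 CPM.

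Some gated cells carried UMIs of other lineages together. With at least 3 UMIs over 16 other-lineage genes, a choice made after seeing the data, there were 1, 3, 2 and 0 such cells among the splenic NK cells and 21, 13, 11 and 18 among the tumor NK cells. In the Aire+/+ isotype library the 1 cell had 13864 UMIs, among them 1 of Klre1, none of Nkg7, 395 of Cd74 and 99 of the class II gene H2-Aa. In the Aire+/+ anti-PD1 library 1 of the 3 cells had 298 UMIs of Cd74, 91 of H2-Aa and 1 of Klre1, and another had 21 of Cd74 with 10 of Nkg7. In the Aire-/- isotype library 1 cell of 17591 UMIs had 33 of Siglech and 31 of Ccr9, genes of plasmacytoid dendritic cells, together with 39 of Nkg7 and 42 of Gzma. So 6 of the 232 cells carried signals of another lineage, and the tests were run again with such cells left out.

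NK cells made up 3.82% (95% Clopper-Pearson interval 3.05 to 4.73), 2.31% (1.72 to 3.05), 2.54% (1.90 to 3.32) and 2.08% (1.55 to 2.74) of the splenic barcodes. The Aire+/+ isotype library was highest and the other 3 lay close together with overlapping intervals. With barcodes holding a Cd79a UMI (B cells) left out of the denominator, the shares were 11.6, 7.62, 7.77 and 7.60%, in which the last 3 are nearer still. The tumor shares were 3.81, 5.88, 8.17 and 11.9%, or 3.82, 5.90, 8.18 and 11.99% without Cd79a barcodes. Spleen and tumor were thus level in the Aire+/+ isotype condition with all barcodes counted, but in the Aire-/- isotype condition without the Cd79a barcodes, so which conditions are level depends on the denominator. Anti-PD1 over isotype, the ratio of splenic shares was 0.606 (0.416 to 0.874) in Aire+/+ and 0.820 (0.545 to 1.23) in Aire-/- mice. Aire-/- over Aire+/+, it was 0.664 (0.460 to 0.953) in isotype-treated mice and 0.899 (0.594 to 1.36) in those given anti-PD1. In tumor the same 4 ratios were 1.54, 1.46, 2.14 and 2.03, all above 1 where all splenic ratios were below 1. Without Cd79a barcodes the splenic ratios were 0.657, 0.978, 0.670 and 0.997, so those of anti-PD1 in Aire-/- mice and of genotype under anti-PD1 were then close to 1. The intervals cover counting error only and not the differences between pools of mice, and a share falls when any other cell type grows.

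**Figure D1:**
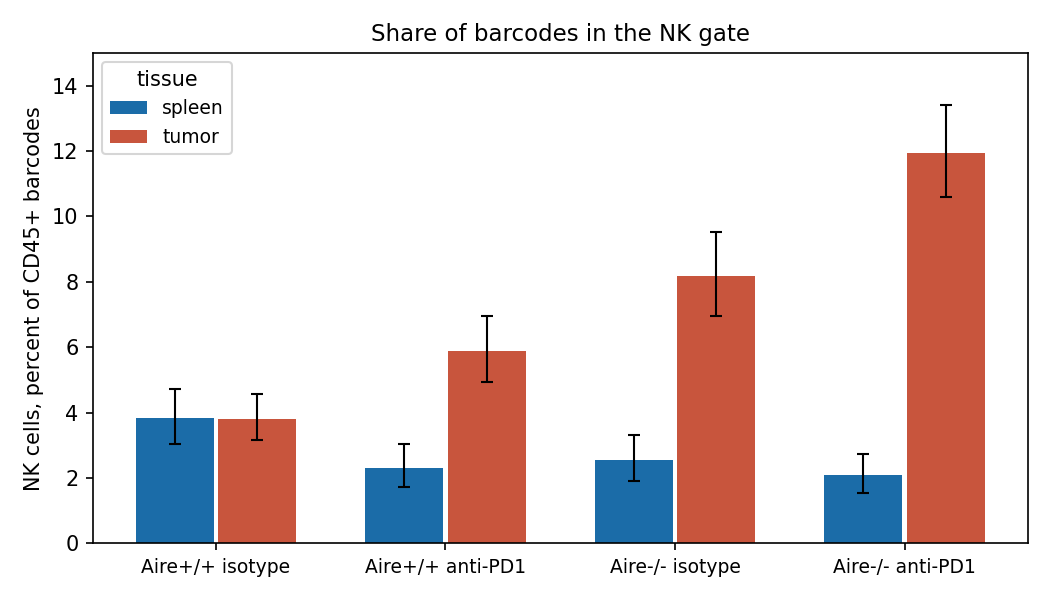
Percent of CD45+ barcodes in the NK gate by condition in spleen and tumor, 1 library each, with 95% Clopper-Pearson intervals for counting error. The splenic shares lie between 2.08 and 3.82% and the tumor shares between 3.81 and 11.9%.

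Splenic NK cells were then compared with tumor NK cells within each condition, which asks how NK cells of a lymphoid organ differ from those inside the tumor of like-treated mice. UMIs were summed over the gated cells of each library and tested with edgeR's quasi-likelihood test with condition as a block, 4 splenic sums against 4 tumor sums, with p-values adjusted by Benjamini-Hochberg over 7280 genes. At an adjusted p under 0.05, 1305 genes (17.9% of those tested) were called higher in spleen and 1518 (20.9%) higher in tumor, among them the 3 gate genes that make the selection. Of these, 1287 and 1066 went the same way in all 4 conditions, and 682 and 796 were past 2-fold. The share of all tested genes without overlap between the tissues was not counted. A lack of overlap given below thus describes a gene and does not set it apart from the rest. The median log2 fold change, spleen over tumor, was 0.02. TMM scaling lowers every splenic value by a mean of 0.36 on the log2 scale relative to scaling by total UMIs, so CPM values printed side by side differ by more than the fold changes in favor of spleen. With scaling by total UMIs, an alternative chosen after seeing the data, 2564 genes were higher in spleen and 877 in tumor, and 24 of the genes called higher in tumor changed sign. With DESeq2, 1848 genes were called, all of them among the 2823. Fold changes below come from the TMM fit, and the gene lists were tested as far as their genes passed the low-count filter.

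Most Ly49 receptor genes were higher in spleen. Klra4, the gene of an activating Ly49 receptor that signals through DAP12, stood at 359, 439.6, 456 and 643 CPM in spleen and 39.4, 63.0, 75.5 and 100.5 in tumor (log2 fold change 2.44, SE 0.13, adjusted p 6.48e-11, higher in 4 of 4). Klra8, the gene of Ly49H, the activating receptor for the m157 protein of mouse cytomegalovirus, stood at 564, 363, 613 and 675 in spleen and 67.3, 83.0, 111 and 117 in tumor (log2 fold change 2.205, SE 0.14, adjusted p 4.19e-10, higher in 4 of 4). For both, the lowest splenic library was more than 3 times the highest tumor library. Among the splenic libraries Klra4 was lowest in Aire+/+ isotype at 359 (297 to 429.5) and highest in Aire-/- anti-PD1 at 643 (542 to 758), with 95% Poisson intervals for counting error that do not overlap. Klra8 was lowest in Aire+/+ anti-PD1 at 363 (289 to 452) and highest in Aire-/- anti-PD1 at 675 (571 to 792). With 1 library per condition this spread was not tested.

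The share of cells with a UMI was also higher in spleen for both genes. Klra4 was found in 44.4, 38.8, 55.8 and 60% of splenic NK cells. With cells thinned to 2000 UMIs it was found in 36.0, 38.8, 53.8 and 44.0%, against 7.14, 14.6, 11.8 and 18.5% of thinned tumor NK cells. Here and below, thinning leaves out the 6 Aire+/+ isotype splenic NK cells with fewer than 2000 UMIs, so 75 remain in that library. Klra8 was found in 61.7, 55.1, 65.4 and 68.0% of splenic NK cells, 40.0, 42.9, 59.6 and 52.0% after thinning, and 10.7, 19.2, 23.0 and 19.4% of thinned tumor NK cells. Splenic B cell barcodes, of which there were 1391, 1435, 1339 and 1691, had a Cd79a UMI and none of Cd3e, Cd3d, Cd3g, Ncr1, Klrb1c or Klre1. Barcodes that also held RNA of these NK genes were thus left out beforehand. Neither Klra4 nor Klra8 had a UMI in any of these B cell barcodes, which should lack them and have median depths of 4214, 4153, 4429 and 4283 UMIs. Both genes were seen in 25, 14, 25 and 21 splenic cells, only Klra4 in 11, 5, 4 and 9, only Klra8 in 25, 13, 9 and 13, and neither in 20, 17, 14 and 7. Klra8 alone was thus more frequent than Klra4 alone in each splenic library.

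Other Klra genes went the same way, with the limit that reads of such close paralogs can be counted to the wrong member. Klra23 stood at 911, 879, 845 and 1233 CPM in spleen and 72.4, 90.3, 102 and 97.8 in tumor (log2 fold change 3.07, adjusted p 1.74e-12), and Klra12 at 410.2, 431, 348 and 747 and 25.4, 27.3, 34.5 and 35.0 (log2 fold change 3.62, adjusted p 6.46e-12), all splenic libraries above all tumor libraries. The inhibitory Ly49 genes Klra9, Klra3, Klra1 and Klra7 had log2 fold changes of 1.77, 1.23, 0.88 and 0.67 (adjusted p 1.53e-08, 1.24e-05, 0.00127 and 0.00363), each higher in spleen in 4 of 4 conditions. Klra7 stood at 609, 1117, 497 and 787 CPM in spleen, highest in the Aire+/+ anti-PD1 library, and without that condition its log2 fold change was 0.38 and it was not called. Klra5 went the other way and was called lower in spleen, at 12.1, 0, 0 and 36.0 in spleen and 50.2, 57.0, 39.9 and 32.0 in tumor (lower in 3 of 4 conditions). Its splenic sums alone would not have passed the low-count filter, so its fold is not given. At least 1 of the 6 genes Klra1, Klra3, Klra4, Klra7, Klra8 and Klra9 was found in 93.8, 89.8, 86.5 and 90.0% of splenic NK cells, with a mean of 2.64, 2.53, 2.67 and 2.84 genes per cell. After thinning, the mean was 2.13, 2.22, 2.31 and 2.28 in spleen and 0.893, 1.09, 1.15 and 1.24 in tumor, so every splenic library was above every tumor library at equal depth.

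Klra4 and Klra8 move together between the tissues, so their promoters are shown, from 250 bases before to 50 after the start, on the minus strand of RefSeq GRCm38.p6, at chr6:130067222-130067521 for Klra4 and chr6:130129849-130130148 for Klra8, for which 1 of 2 listed starts is shown. The capitals mark the longest run that both hold, of 37 bases, which is found in 3 of 32851 mouse promoters of this length (0.00913%), those of these 2 genes. The match describes how alike the windows are and names no binding site.

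Klra4: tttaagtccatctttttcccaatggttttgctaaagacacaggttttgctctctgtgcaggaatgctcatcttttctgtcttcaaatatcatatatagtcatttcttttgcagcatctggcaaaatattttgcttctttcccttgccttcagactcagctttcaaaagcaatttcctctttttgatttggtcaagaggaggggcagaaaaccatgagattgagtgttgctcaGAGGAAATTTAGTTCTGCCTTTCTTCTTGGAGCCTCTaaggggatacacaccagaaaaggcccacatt

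Klra8: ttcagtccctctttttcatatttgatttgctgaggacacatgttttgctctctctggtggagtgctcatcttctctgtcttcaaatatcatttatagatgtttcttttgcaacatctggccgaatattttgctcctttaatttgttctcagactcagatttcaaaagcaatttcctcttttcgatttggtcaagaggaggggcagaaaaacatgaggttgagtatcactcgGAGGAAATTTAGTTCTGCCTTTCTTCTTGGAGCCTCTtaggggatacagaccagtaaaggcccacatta

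Other activating receptors divided. Of 11 genes on the activating receptor list 9 were tested outside the gate genes, with 5 higher in spleen, 1 higher in tumor and a median log2 fold change of 0.47, beside 0.02 over all genes tested. Klrc2, the gene of the activating receptor NKG2C, stood at 437, 502, 374 and 576 CPM in spleen and 40.0, 58.8, 46.8 and 52.8 in tumor (log2 fold change 2.90, SE 0.13, adjusted p 7.82e-12, higher in 4 of 4). Klrk1, the gene of NKG2D, which binds stress ligands, stood at 938, 1148, 1155 and 1192 in spleen and 467, 547, 587 and 527 in tumor (log2 fold change 0.71, SE 0.09, adjusted p 7.16e-06, higher in 4 of 4). Klrc2 differed far more than Klrk1, and for both all splenic libraries were above all tumor libraries. Crtam, a receptor gene induced on activation, was the 1 gene higher in tumor (log2 fold change -1.37, adjusted p 0.00671, lower in spleen in 3 of 4 conditions), and without the Aire+/+ isotype condition it was not called (-0.98), nor with DESeq2 (-1.35).

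The inhibitory receptor list had 14 of 19 genes tested, with 5 higher in spleen, 7 higher in tumor and a median of -0.02. Those higher in spleen were 4 Ly49 genes and Klrg1. With thinned cells 1 of 9 tested was higher in tumor and without high-UMI cells 3 of 11. Those lower in spleen included checkpoint receptor genes. Lag3 stood at 12.1, 8.97, 22.4 and 22.5 CPM in spleen and 73.0, 71.5, 139 and 108 in tumor, lower in 4 of 4. Its splenic sums alone would not have passed the low-count filter, so its fold is not given. Tigit stood at 54.3, 49.3, 29.9 and 67.5 in spleen and 119, 170.3, 173 and 154 in tumor (log2 fold change -1.95, SE 0.20, adjusted p 4.46e-07, lower in 4 of 4). Ctla4 had no UMI in any splenic NK sum and 73.7, 72.7, 106 and 125 CPM in tumor, at least 5.41-fold lower in spleen in each condition against a floor of 3 UMIs per library. Pdcd1, the gene of the receptor that the antibody blocks, had 4 UMIs in spleen, all in 1 cell of the Aire+/+ anti-PD1 library, and 26.0, 57.6, 37.2 and 40.1 CPM in tumor. It passed the low-count filter through the tumor sums alone, so its fold is not given. For all 4 genes every splenic library was below every tumor library. Klrc1, the gene of the inhibitory receptor NKG2A, was not called (log2 fold change 0.26, adjusted p 0.0712), but was called higher in spleen without the other-lineage cells (0.27) and with scaling by total UMIs (0.62).

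The NK identity list had 10 genes tested outside the gate, with 7 higher in spleen, 2 higher in tumor and a median of 0.56. Tbx21, the gene of T-bet, stood at 477, 296, 415 and 513 CPM in spleen and 111, 173, 171 and 148 in tumor (log2 fold change 1.16, SE 0.16, adjusted p 1.39e-05, higher in 4 of 4). Eomes, the gene of the related factor eomesodermin, stood at 344, 422, 340.2 and 396 and 206, 187, 214 and 209 (log2 fold change 0.52, SE 0.12, adjusted p 0.00221, higher in 4 of 4). Both were higher in all splenic than in all tumor libraries, and without cells of more than 2 times the median UMIs the log2 fold change of Eomes was 0.14 and of Nkg7 0.21, neither called. Klrd1, the gene of the CD94 chain that pairs with NKG2 receptors, and Il2rb, the gene of a receptor chain for interleukins 2 and 15, each had a log2 fold change of -0.30 (adjusted p 0.0235 and 0.0166, lower in 1 and 1 of 4 conditions by CPM), and scaling by total UMIs turned them to 0.05 and 0.06. Neither was called without the Aire-/- isotype condition (-0.21 and -0.24), nor was Il2rb without Aire-/- anti-PD1 (-0.29), and Klrd1 also lost its call with DESeq2 (-0.32), with thinned cells (0.03) and without high-UMI cells (-0.27). Of 17 adaptor and proximal signaling genes, all tested, 9 were higher in spleen and 2 in tumor, with a median of 0.45. The kinase gene Syk (log2 fold change 1.69, adjusted p 0.000110), the adaptor gene Lat (log2 fold change 1.27, adjusted p 5.85e-06) and Cd247, the gene of the zeta chain (log2 fold change 1.19, adjusted p 1.76e-05), led those higher in spleen, each in 4 of 4 conditions.

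The cytotoxic granule genes divided by granzyme. Gzma, the gene of granzyme A, stood at 13356, 11003, 10975 and 15888 CPM in spleen and 3879.7, 3943, 6235 and 6105 in tumor (log2 fold change 1.02, SE 0.11, adjusted p 7.66e-07, higher in 4 of 4). Gzmb, the gene of granzyme B, stood at 796, 641, 639 and 936 in spleen and 5420.1, 4058, 6725 and 6919.9 in tumor (log2 fold change -3.28, SE 0.11, adjusted p 1.55e-13, lower in 4 of 4). The tissues did not overlap for either gene, with granzyme A high in spleen and granzyme B high in tumor. Gzmc, the gene of granzyme C, had 2, 2, 0 and 17 UMIs in the splenic cells, the 17 of them in 1 cell. In tumor Gzmc stood at 21143, 19279, 15055 and 14895 CPM, so it was lower in spleen in 4 of 4. It passed the low-count filter through the tumor sums alone, so its fold is not given. Gzmd had no UMI in spleen and 1239, 1145, 1050.3 and 2122 CPM in tumor, at least 85.0-fold lower in each condition, and Gzme, Gzmf and Gzmg, also without a splenic UMI, were at least 45.3, 15.03 and 1.33-fold lower. Splenic NK cells thus had few or no UMIs of these 5 granzyme genes, though the bound for Gzmg is small.

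Prf1, the gene of perforin, stood at 983, 682, 725 and 989.6 CPM in spleen and 1085, 746, 935 and 1208 in tumor (log2 fold change -0.58, SE 0.09, adjusted p 8.78e-05, lower in 4 of 4), and the tissues overlapped. With cells thinned to 2000 UMIs its log2 fold change was -0.25 and it was not called. Gzmm, the gene of granzyme M, had only 8, 3, 3 and 3 splenic UMIs. It was called higher in spleen, but not without the Aire+/+ isotype condition, nor with DESeq2 or no low-count filter. Its tumor sums alone would not have passed that filter, so its fold is not given. Of the 20 genes for granules and death ligands, 19 were tested, with 5 higher in spleen and 12 in tumor. The 5 became 3 without Aire+/+ isotype, 3 without Aire-/- anti-PD1 and 2 with DESeq2, with Gzma and Nkg7 called in each of these. They were also 3 with no low-count filter, with thinned cells and without the other-lineage cells. Without high-UMI cells 2 of 15 tested were higher in spleen, and Nkg7 was not called (0.21). Their median was -1.08, or -0.76 with the 4 genes at 0 in spleen set to their bounds. Srgn, the gene of the granule proteoglycan serglycin, was lower in spleen (log2 fold change -2.02, adjusted p 6.70e-11, 4 of 4), as was Serpinb9, the gene of an inhibitor of granzyme B (log2 fold change -1.71, adjusted p 1.38e-08, 4 of 4).

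Among secreted factors, Ccl5 led. This chemokine gene stood at 18719.5, 15103, 16799 and 20462 CPM in spleen and 2488, 1988, 3744 and 3322 in tumor (log2 fold change 2.31, SE 0.11, adjusted p 1.35e-11, higher in 4 of 4). The lowest splenic library was more than 4 times the highest tumor library. Xcl1, the gene of the chemokine that draws XCR1+ dendritic cells, went the other way at 205, 332, 419 and 220.4 in spleen and 1707, 1669, 1179 and 1206 in tumor (log2 fold change -2.65, SE 0.17, adjusted p 4.94e-10, lower in 4 of 4), with no overlap. Ifng, the gene of interferon gamma, stood at 106, 94.2, 74.8 and 108 in spleen and 265, 97.6, 136 and 161 in tumor (log2 fold change -1.14, SE 0.18, adjusted p 7.30e-05, lower in 4 of 4), and the tissues overlapped through the Aire+/+ anti-PD1 tumor library. Ccl4 was lower in spleen (log2 fold change -0.99, adjusted p 5.39e-07, 4 of 4). Ccl3 was called higher in spleen (log2 fold change 0.55, adjusted p 0.00607, 4 of 4), but its log2 fold change was -0.22 with cells thinned to 2000 UMIs and -0.28 without cells of more than 2 times the median UMIs, and without the Aire-/- isotype condition it was not called (0.34). Of 10 cytokine and chemokine genes 6 were tested, with 2 higher in spleen, 4 in tumor and a median of -1.06.

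The mature NK program was where the splenic cells stood highest. Of its 10 genes, all tested, 9 were higher in spleen and 1 in tumor, with a median log2 fold change of 2.41 beside 0.02 over all genes. S1pr5 stood at 386, 349.9, 273 and 463 CPM in spleen and 5.72, 3.64, 2.13 and 5.43 in tumor, higher in spleen in 4 of 4 conditions. Its tumor sums held 9, 6, 4 and 18 UMIs. As it passed the low-count filter through the splenic sums alone, its fold is not given. It was found in 67.9, 59.2, 61.5 and 72.0% of splenic NK cells, 58.7, 42.9, 44.2 and 50% after thinning to 2000 UMIs, 1.79, 2.31, 1.97 and 2.02% of thinned tumor NK cells and 0.431, 0.279, 0.149 and 0.237% of splenic B cells at the depths given above. So, with cells of both tissues thinned, 42.9 to 58.7% of splenic NK cells and 1.79 to 2.31% of tumor NK cells had it. Itgam, the gene of CD11b, stood at 271, 224, 247 and 247 CPM in spleen and 26.0, 18.2, 28.2 and 22.6 in tumor (log2 fold change 3.03, SE 0.16, adjusted p 4.06e-11, higher in 4 of 4). Zeb2, the gene of a factor needed for late NK maturation, stood at 253, 161, 258 and 274 and 39.4, 26.7, 27.1 and 20.8 (log2 fold change 2.73, SE 0.18, adjusted p 1.02e-09, higher in 4 of 4). Klrg1, the gene of a cadherin-binding inhibitory receptor of mature cells, stood at 278, 219.8, 206 and 472 and 48.9, 16.97, 49.4 and 70.6 (log2 fold change 2.31, SE 0.18, adjusted p 1.12e-08, higher in 4 of 4). None of the 3 overlapped between tissues, and within spleen Klrg1 was highest in the Aire-/- anti-PD1 library at 472 (386 to 572) against 206 (155 to 268) in Aire-/- isotype. Cma1, the gene of a chymase, had a log2 fold change of 4.06, Cx3cr1, a chemokine receptor gene, of 2.51, and Klf2, the gene of a factor that keeps lymphocytes in circulation, of 1.67 (adjusted p 9.77e-13, 1.53e-06 and 1.09e-08), each higher in 4 of 4. Irf8 was the exception at 465, 341, 381 and 387 in spleen and 1133, 1297, 1384 and 1547 in tumor (log2 fold change -2.10, adjusted p 1.52e-10, lower in 4 of 4).

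**Figure D2:**
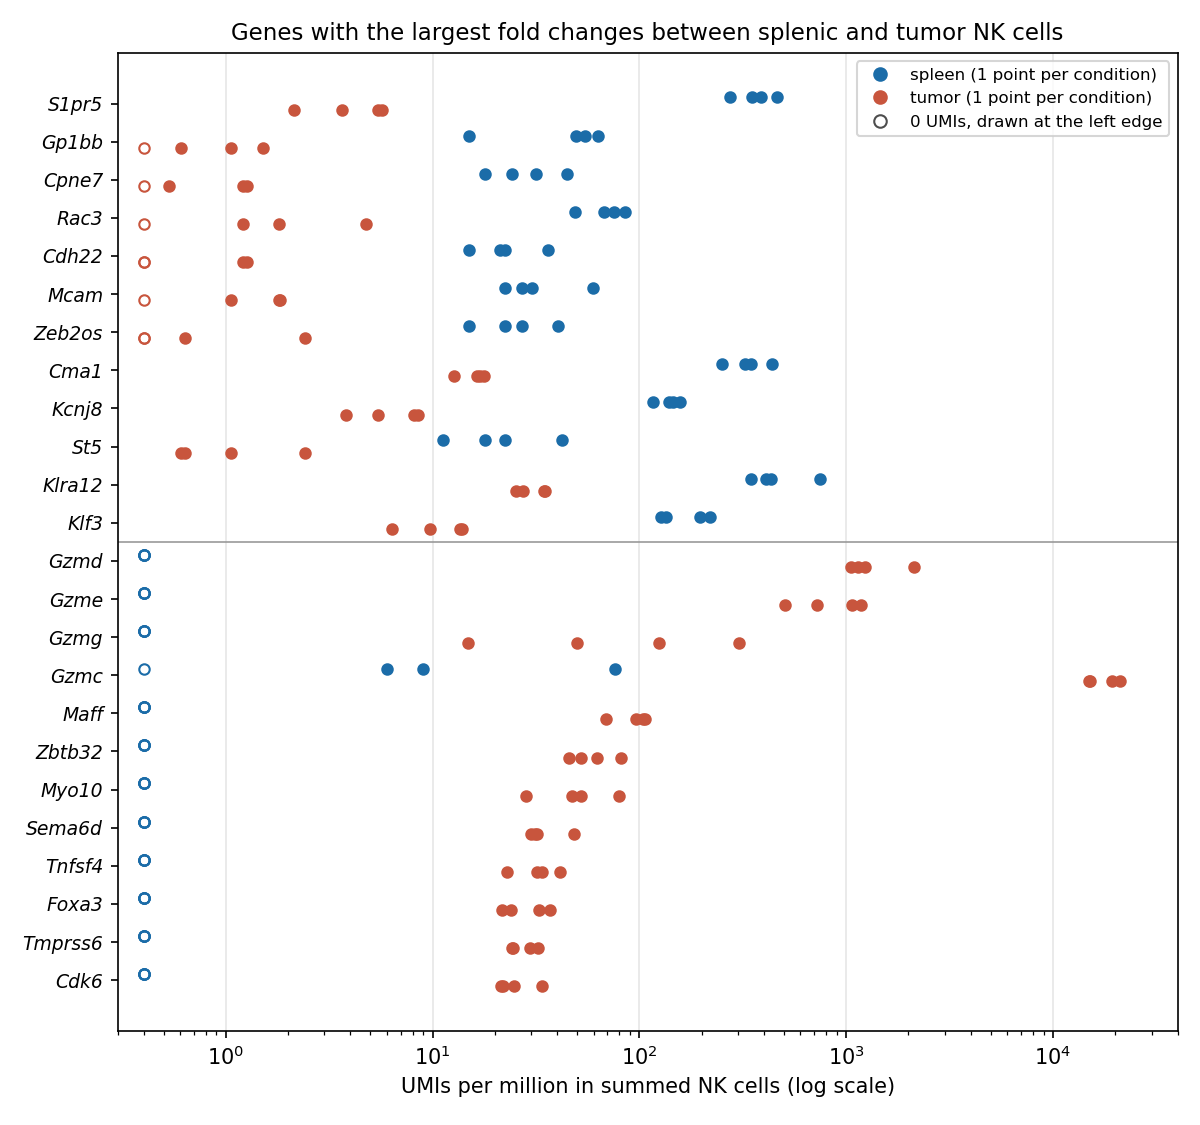
Level in CPM (horizontal log axis) of the 12 named genes in each direction in splenic and tumor NK cells, 1 point per library, with open points for 0 UMIs drawn at the left edge. S1pr5, Cma1 and Klra12 lie above all tumor libraries in all 4 splenic libraries, and Gzmc lies below them, in the TMM fit and with scaling by total UMIs.

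The immature NK program had 11 genes tested of 11, with 4 higher in spleen, 5 in tumor and a median of 0.30, so it did not move as a block. Cd7, the gene of a surface protein of early NK and T cells, stood at 748, 807, 1103 and 976 CPM in spleen and 61.0, 46.1, 66.4 and 95.7 in tumor (log2 fold change 3.41, SE 0.14, adjusted p 1.60e-12, higher in 4 of 4). Thy1 stood at 235, 287, 206 and 216 in spleen and 983, 748, 898 and 887 in tumor (log2 fold change -2.25, SE 0.13, adjusted p 1.99e-10, lower in 4 of 4). The first was high in spleen and the second high in tumor, both without overlap. Cd27 itself was not called (log2 fold change 0.30, adjusted p 0.169), but was called higher in spleen with scaling by total UMIs (0.66). Il7r, the gene of the interleukin 7 receptor, was called higher in spleen (log2 fold change 2.05, adjusted p 0.000113, 4 of 4) at 39.2, 215, 82.2 and 40.5 CPM, but 29 of the 48 UMIs of the Aire+/+ anti-PD1 library came from 1 of its 3 other-lineage cells, and without the other-lineage cells that library stood at 69.1 CPM. The tumor libraries then stood at 4.68, 22.5, 4.89 and 7.95 CPM.

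Homing and adhesion genes were mostly higher in spleen, 12 of 16 tested against 1 higher in tumor (2, with Cxcr6, without Aire+/+ anti-PD1), with a median of 1.54. S1pr1, the gene of the receptor that guides lymphocytes out of organs, stood at 54.3, 94.2, 71.0 and 27.0 CPM in spleen and 0.635, 5.46, 5.85 and 8.15 in tumor, higher in spleen in 4 of 4. It passed the low-count filter through the splenic sums alone, so its fold is not given. Itgb2, the gene of the integrin chain shared by CD11b and LFA-1, stood at 1017, 951, 923 and 1152 and 161, 156, 229 and 197 (log2 fold change 2.10, SE 0.12, adjusted p 1.52e-10, higher in 4 of 4). Neither overlapped between the tissues. Itga4, the gene of an integrin chain that binds VCAM1, was higher in spleen (log2 fold change 2.35, adjusted p 3.18e-11, 4 of 4). Cxcr4, the gene of the receptor for CXCL12, was the 1 gene called lower in spleen. It stood at 21.1, 17.9, 3.74 and 8.996 in spleen and 48.9, 105, 92.5 and 93.2 in tumor, lower in 4 of 4. Its splenic sums alone would not have passed the low-count filter, so its fold is not given.

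Genes of tissue residency and ILC1 were low in spleen. Of 12 genes 9 were tested, with 1 higher in spleen, 7 higher in tumor and a median of -3.04. Rgs1, the gene of a regulator that dampens chemokine receptor signals, stood at 90.5, 108, 105 and 108 CPM in spleen and 1418, 1171, 1152 and 1164 in tumor (log2 fold change -3.94, SE 0.13, adjusted p 1.55e-13, lower in 4 of 4). Cd69, the gene of a protein that holds lymphocytes in tissue by removing S1PR1 from the surface, stood at 51.3, 67.3, 44.9 and 45.0 and 302, 386, 308 and 411 (log2 fold change -3.08, SE 0.16, adjusted p 6.48e-11, lower in 4 of 4). Itga1, the gene of CD49a, stood at 3.02, 0, 7.48 and 13.5 and 50.8, 38.2, 40.4 and 31.1, lower in spleen in 4 of 4. As Itga1 passed the low-count filter through the tumor sums alone, its fold is not given. All splenic libraries were below all tumor libraries for these 3 genes. Cxcr6 was not called (log2 fold change -1.27, adjusted p 0.0652), but was called without the Aire+/+ anti-PD1 condition (-2.10), without the other-lineage cells (-1.70) and with no low-count filter (-1.38).

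Of 20 transcription factor genes, all tested, 12 were higher in spleen and 5 in tumor, with a median of 0.55. Ikzf3, the gene of Aiolos, stood at 326, 269, 284 and 396 CPM in spleen and 65.4, 61.8, 58.5 and 66.1 in tumor (log2 fold change 1.99, SE 0.13, adjusted p 8.70e-10, higher in 4 of 4). Nr4a1, the gene of a factor induced by receptor signals, stood at 30.2, 35.9, 22.4 and 17.99 and 223, 378, 384 and 553 (log2 fold change -4.11, SE 0.22, adjusted p 6.78e-11, lower in 4 of 4). The first was high in spleen and the second high in tumor, with no overlap. Id2, the gene of a factor that NK cells need to develop, was not called (log2 fold change -0.07, adjusted p 0.607), but with scaling by total UMIs it was called higher in spleen (0.29). The cytokine receptor genes, 14 of 14 tested, had 6 higher in each tissue and a median of -0.22, with 2 higher in tumor under scaling by total UMIs. Il18r1 and Il18rap, which encode the chains of the interleukin 18 receptor, were higher in spleen (log2 fold changes 1.45 and 1.31, adjusted p 2.81e-07 and 2.96e-07, 4 of 4 each). Il2ra, the gene of the high-affinity chain of the interleukin 2 receptor, had 1 splenic UMI and stood at 54.6, 48.5, 31.4 and 60.4 CPM in tumor, and as it passed the low-count filter through the tumor sums alone its fold is not given. Il2rg, the gene of the common gamma chain, was called lower in spleen (log2 fold change -0.30, adjusted p 0.0146, lower in 1 of 4 by CPM), but scaling by total UMIs gave 0.06, and it was not called without the Aire+/+ isotype condition (-0.28).

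Programs of acute response were low in the splenic cells. None of 16 tested immediate early and heat shock genes (of 18) was higher in spleen and 15 were higher in tumor, with a median of -1.89. Fosb had no splenic UMI, and Atf3, Ier3 and Egr1 had none in at least 1 splenic library. The splenic sums of these genes alone would not have passed the low-count filter, so the count is in part set by that filter. Fos stood at 51.3, 17.9, 37.4 and 27.0 CPM in spleen and 408, 306, 211 and 305 in tumor (log2 fold change -3.50, SE 0.20, adjusted p 1.18e-10, lower in 4 of 4), without overlap. Egr1 had 3.02, 0, 172 and 4.498 CPM in spleen, where 36 of the 46 UMIs of the Aire-/- isotype library came from 1 cell, and it was not called without the Aire-/- anti-PD1 condition (-1.05) or with no block (-1.75). Such genes also respond to digestion, and handling cannot be told apart from tissue. None of 17 interferon response genes was higher in spleen and 16 were higher in tumor, with a median of -3.19, or -2.20 with Rsad2, which had no splenic UMI, at its bound. Ifit1, Ifit3, Oasl2 and Ifi27l2a had no UMI in at least 1 splenic library each. Their splenic sums and those of Rsad2 alone would not have passed the low-count filter, so this count too is in part set by it. Isg15, the gene of an interferon-induced modifier protein, stood at 21.1, 35.9, 18.7 and 31.5 in spleen and 269, 393, 373 and 306 in tumor (log2 fold change -4.01, SE 0.19, adjusted p 1.63e-11, lower in 4 of 4). Irf7, the gene of a factor that amplifies the interferon response, stood at 63.3, 76.3, 78.5 and 63.0 and 170.2, 279, 338 and 252 (log2 fold change -2.20, SE 0.16, adjusted p 4.21e-09, lower in 4 of 4). For both, the splenic libraries lay below the tumor libraries.

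All 12 tested glycolysis and hypoxia genes were higher in tumor, with a median of -1.86. Ldha, the gene of lactate dehydrogenase A, stood at 347, 417, 392 and 364 CPM in spleen and 1788, 1399, 1423 and 1529 in tumor (log2 fold change -2.36, SE 0.11, adjusted p 1.63e-11, lower in 4 of 4), and Hif1a, the gene of the oxygen-sensing factor, at 42.2, 53.8, 67.3 and 72.0 and 131, 147, 209 and 204 (log2 fold change -1.91, SE 0.16, adjusted p 3.42e-08, lower in 4 of 4). Neither overlapped. Of 14 cell cycle genes 13 were tested and 12 were higher in tumor, with a median of -1.44, and none was higher in spleen. Among them 2810417H13Rik, Birc5, Cdk1 and Ccnb2 had no UMI in either anti-PD1 spleen. Tyms had none in the Aire+/+ anti-PD1 spleen and Mki67 none in the Aire-/- anti-PD1 spleen. The splenic sums of these genes alone would not have passed the low-count filter, so the count is in part set by it. Without cells of more than 2 times the median UMIs 1 of 6 tested was higher in tumor, and with thinned cells 0 of 4. Stmn1, the gene of a tubulin regulator of dividing cells, was among them (log2 fold change -1.09, adjusted p 0.00290, lower in 3 of 4) but stood at 0.16 without cells of more than 2 times the median UMIs. Without those cells Tubb5 (-0.28), Mcm5 (-0.29) and Pcna (-0.49) also lost their calls, as did Tubb5 (-0.44), Ccnb2 (-1.05) and Mcm5 (-0.65) with scaling by total UMIs. DESeq2 did not call Tubb5 (-0.93) or Ccnb2 (-3.04), and no block lost Ccnb2 (-1.37) and Mki67 (-1.37). Leaving out a condition lost the call of Cdk1 (-1.58, -1.41 and -1.53) and Ccnb2 (-1.33, -0.94 and -1.13) without Aire+/+ isotype, Aire+/+ anti-PD1 or Aire-/- anti-PD1, and of Tubb5 (-0.41 and -0.79) and Mcm5 (-0.72 and -0.93) without either anti-PD1 condition. At least 3 UMIs of 5 cycle genes were found in 1 of 81, 0 of 49, 2 of 52 and 0 of 50 splenic NK cells, and 17, 19, 16 and 24 tumor NK cells, at unequal depth. In the Aire-/- isotype spleen 73 of the 83 UMIs of these genes came from 1 cell. Of 8 survival genes 4 were higher in tumor and none in spleen, with a median of -0.36. Of the 4, Mcl1 (log2 fold change -0.43) was not called when any 1 condition was left out (-0.49 to -0.36). Mcl1 also lost its call with DESeq2 (-0.45), scaling by total UMIs (-0.07) and thinned cells (-0.58). The same held with a gate of at least 2 UMIs (-0.25), Lyz2 at 0 (-0.33) and other-lineage cells left out (-0.26). With scaling by total UMIs Bcl2l1 was called higher in spleen (0.78). Of the other-lineage lists, 0 to 2 genes each were tested. Cd28, Cd74, Cd68, Cst3 and H2-Ab1 were called higher in tumor, Ly6c2 and Gata3 higher in spleen, and Ighm was not called, so the B, monocyte and dendritic lists had medians of -0.87, -0.27 and -1.62. Without the other-lineage cells H2-Ab1 had a log2 fold change of -0.47 and was no longer called, Ighm was called higher in tumor (-0.44, and -0.52 without Aire-/- anti-PD1), and Cd74 kept its call (-1.52), which it lost with a gate of at least 2 UMIs (-0.86) and with no block (-1.05). Cd68 was not called without the Aire+/+ isotype condition (-0.62), nor with DESeq2 (-1.43), no block (-1.49), a gate of at least 2 UMIs (-1.34) or Lyz2 at 0 (-0.78). Gata3 was not called without Aire+/+ anti-PD1 (0.37), Aire-/- isotype (0.51) or Aire-/- anti-PD1 (0.42), nor without the other-lineage cells (0.36), and it lost the call also with DESeq2 (0.47), no low-count filter (0.37), thinned cells (0.07), a gate of at least 2 UMIs (0.40) and high-UMI cells left out (0.20).

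Across all genes, the named rule took those that changed the same way in all 4 conditions and lay above the other barcodes of their library in each library of the higher tissue. The 12 with the largest fitted values toward spleen were S1pr5, Gp1bb, Cpne7, Rac3, Cdh22, Mcam, Zeb2os, Cma1, Kcnj8, St5, Klra12 and Klf3. Cma1 stood at 326, 251, 348 and 436 CPM in spleen and 12.7, 16.97, 16.5 and 17.8 in tumor (SE 0.16, adjusted p 9.77e-13). Kcnj8, the gene of a potassium channel subunit, stood at 139, 117, 146 and 157 and 3.81, 5.46, 8.505 and 8.15. Klf3, the gene of a repressor related to KLF2, stood at 196, 135, 127 and 220.4 and 6.35, 9.70, 13.8 and 13.6. All 3 genes were below 18 CPM in tumor NK cells of every condition. The platelet glycoprotein gene Gp1bb had 18, 14, 4 and 11 splenic UMIs, and Cpne7, Cdh22, Mcam, Zeb2os and St5 had 3 to 16 per library, and the tumor sums of these 6 genes and of Rac3 had 0 to 9 UMIs per library. Like S1pr5, Kcnj8 and Klf3, they passed the low-count filter through spleen alone, so the rank of all these genes by fold is not exact. The 12 with the largest fitted values toward tumor were Gzmd, Gzme, Gzmg, Gzmc, Maff, Zbtb32, Myo10, Sema6d, Tnfsf4, Foxa3, Tmprss6 and Cdk6, and all but Gzmc had no UMI in any splenic NK sum, so their order is not one of measured folds. Maff, the gene of a small Maf factor, was at least 7.58-fold lower in spleen in each condition and the 7 listed after it at least 3.38, 2.51, 2.21, 2.04, 1.61, 2.18 and 1.59-fold. In all, 31 tested genes had no splenic UMI, and as these passed the low-count filter through the deeper tumor sums alone, their direction was set before the test. Under every alternative, 768 genes kept their call, among them Cma1 and Klra12. The 768 also count genes that passed the low-count filter through 1 tissue alone, whose direction was set before the test. Among these are S1pr5, Rac3, Kcnj8 and Klf3, through spleen, and Gzmc, Gzmd and Maff, through tumor. Ribosomal protein genes were lower in spleen as a group, 76 of 95 tested higher in tumor and 3 higher in spleen, with a median of -0.81, which scaling by total UMIs moves toward 0 by the 0.36 given above.

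To see how splenic NK cells vary among themselves, they were divided by Cd27, the gene of a receptor that marks the less mature cells. A Cd27 UMI was found in 18, 15, 17 and 16 cells, which is 22.2, 30.6, 32.7 and 32.0% (16, 16.3, 13.5 and 22.0% after thinning to 2000 UMIs), against 0.288, 0.557, 0.299 and 0.355% of splenic B cells. The cells with a UMI were deeper, with median UMIs of 4630.5, 4464, 5333 and 4927 against 3540, 3757, 3880 and 3951.5, so the class without a UMI also holds cells whose Cd27 RNA was missed. The part of depth in the differences below was not tested. With library as a block in edgeR's quasi-likelihood test and Cd27 left out, 47 of 2085 genes (2.25%) were called higher with a Cd27 UMI and 22 (1.06%) higher without, 46 and 21 of them the same way in all 4 libraries. The median log2 fold change was 0.00. The count of 69 was 42, 26, 32 and 20 when the libraries were left out in turn, in the order of conditions given. It was 110 without the other-lineage cells and 37 with no library block, and DESeq2 called 19, all shared. DESeq2's own filter on mean counts left 226 genes with an adjusted p and 20 of the 69 without one. With that filter off, an alternative chosen after seeing the data, it called 12.

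Of the genes higher without Cd27, Ccl4 had the largest change. It stood at 292, 131, 156 and 481 CPM with a Cd27 UMI and 1289.7, 668, 1399 and 704 without (log2 fold change -1.94, SE 0.28, adjusted p 0.00166, lower in 4 of 4). Klrg1 stood at 93.3, 155, 52.1 and 265 with and 342, 259, 322 and 597 without (log2 fold change -1.46, SE 0.24, adjusted p 0.00364, lower in 4 of 4). Zeb2 stood at 128, 107, 121 and 132 with and 297, 194, 361 and 359 without (log2 fold change -1.27, SE 0.21, adjusted p 0.00364, lower in 4 of 4). Within each library the class without Cd27 was higher for all 3, and for Ccl4 and Zeb2 the classes did not overlap across libraries. In DESeq2 with its filter off, Ccl4 (adjusted p 0.0363) and Klrg1 (adjusted p 0.0422) were called and Zeb2 (adjusted p 0.161) was not, nor were Ccl3 and Kcnj8. Ccl3 (-1.50, adjusted p 0.0182, lower with a Cd27 UMI in 4 of 4) was not called without Aire+/+ isotype (-1.42), Aire+/+ anti-PD1 (-1.66) or Aire-/- isotype (-0.93), and Kcnj8 (-1.74, adjusted p 0.0162, lower in 4 of 4) not without Aire-/- isotype (-1.22) or Aire-/- anti-PD1 (-1.71). Of the mature NK program 8 of 10 genes were tested and 6 were higher without Cd27, none with, with a median of -1.03. Among them Klf2 (-0.59, adjusted p 0.0453, lower in 3 of 4) was called without Aire+/+ anti-PD1 (-0.86) but not without Aire+/+ isotype (-0.51), Aire-/- isotype (-0.46) or Aire-/- anti-PD1 (-0.56). S1pr5, Itgam and Ly6c2 had log2 fold changes of -0.98, -1.21 and -1.08 (adjusted p 0.0297, 0.0329 and 0.00243, lower with a Cd27 UMI in 4 of 4 each). Of these, S1pr5 was called in 1 of the 4 fits that left out a library, without Aire-/- anti-PD1 (-1.31), and not without Aire+/+ isotype (-1.06), Aire+/+ anti-PD1 (-0.95) or Aire-/- isotype (-0.69), and Itgam likewise (-1.63, and -1.09, -1.37 and -0.80). Klra4 (-0.68, adjusted p 0.0492) and Klra8 (-0.63, adjusted p 0.0423) were also lower with a Cd27 UMI, in 4 of 4 libraries each, but neither was called when any 1 library was left out, with values from -0.85 to -0.50 and from -0.72 to -0.52. Gzma had a log2 fold change of -0.80 (adjusted p 0.00103, lower in 4 of 4).

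Genes higher with a Cd27 UMI were fewer outside the ribosome. Of the 47, 33 were ribosomal protein genes, of 85 tested, with log2 fold changes from 0.33 to 0.58. The 14 others were led by Thy1, at 467, 418, 356 and 337 CPM with and 155, 208, 91.9 and 144 without (log2 fold change 1.46, SE 0.19, adjusted p 0.000876, higher in 4 of 4), and Ctla2a, the gene of a cathepsin inhibitor, at 478, 693, 564 and 433 with and 195, 229.9, 184 and 230.0 without (log2 fold change 1.40, SE 0.17, adjusted p 0.000536, higher in 4 of 4). For both genes the lowest class with a Cd27 UMI was above the highest class without, and DESeq2 with its filter off called both (adjusted p 0.00768 and 0.00199). Cmtm7 (1.38, adjusted p 0.0182) was not called without Aire+/+ anti-PD1 (1.21) or Aire-/- anti-PD1 (1.52), and Ccr2, a chemokine receptor gene (1.08, adjusted p 0.00605), not without Aire-/- anti-PD1 (0.96). Ighm (1.28, adjusted p 0.0277) lost its call whichever library was left out, with values from 0.84 to 1.52. Each of these 3 was higher with a Cd27 UMI in 4 of 4 libraries, and none was called by DESeq2 with its filter off. Of the immature NK program 7 of 11 genes were tested with Cd27 itself set aside and 4 were higher with Cd27 (Cd7, Thy1, Xcl1 and Ctla2a), with a median of 1.27. Cd7 was not called without Aire+/+ isotype (0.68), nor Xcl1 without Aire+/+ isotype (0.75), Aire-/- isotype (0.88) or Aire-/- anti-PD1 (0.999). In the tissue test Thy1, Ctla2a and Xcl1 were higher in tumor and Cd7 higher in spleen.

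**Figure D3:**
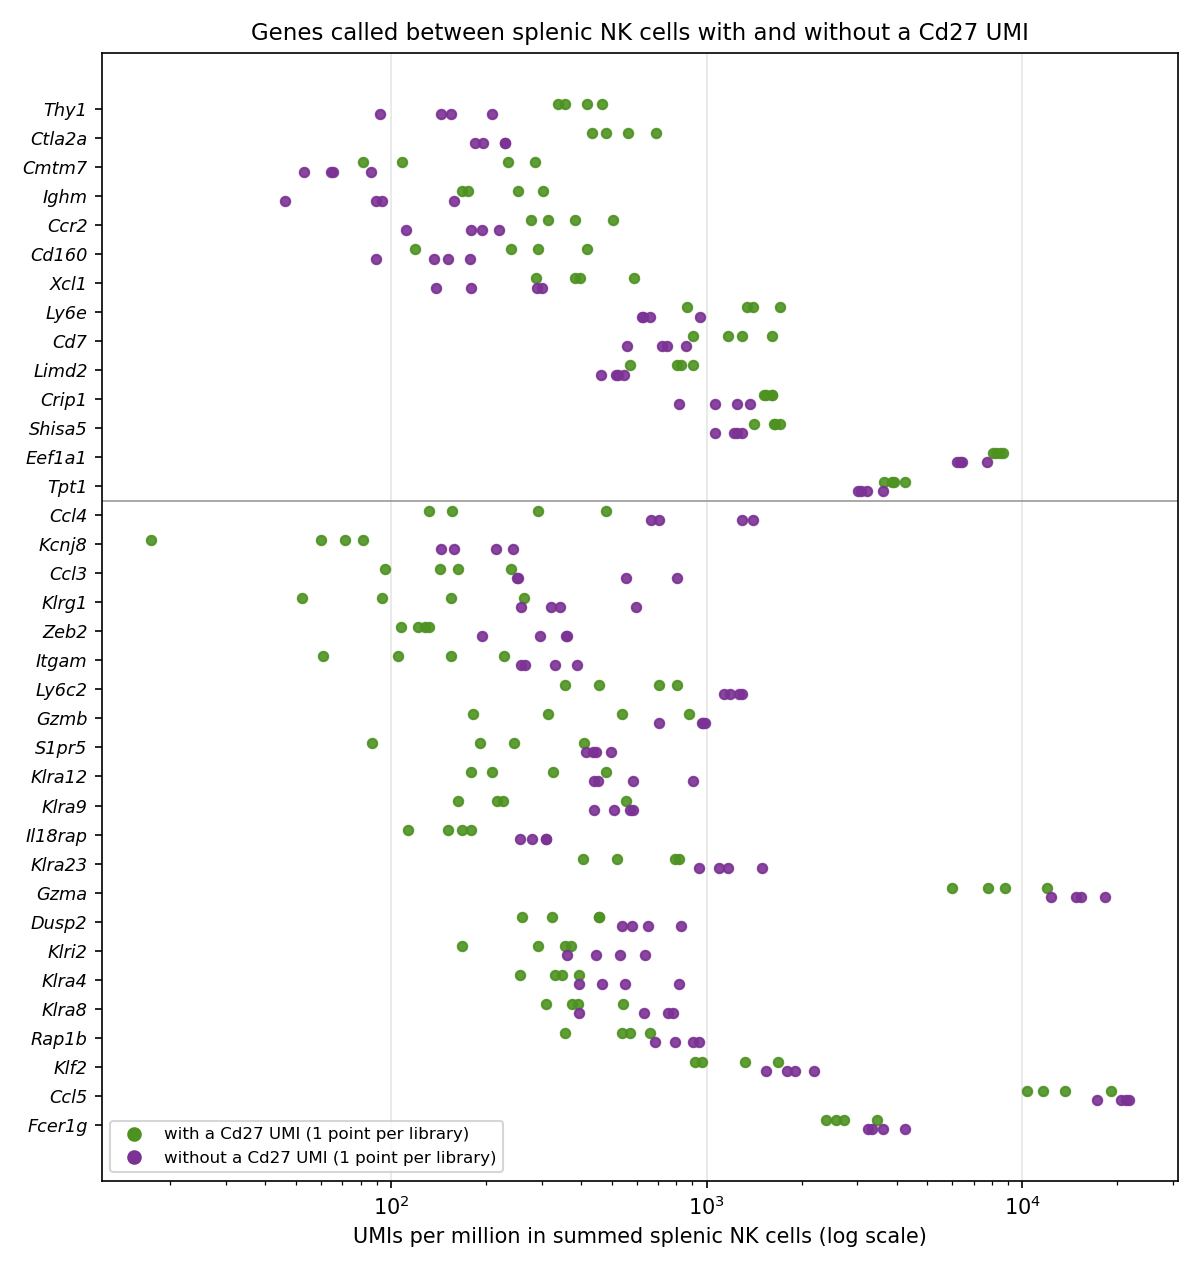
Level in CPM (horizontal log axis) of the 36 called genes outside the ribosomal protein genes in splenic NK cells with and without a Cd27 UMI, 1 point per library and class. The 14 genes higher with a Cd27 UMI include Thy1 and Ctla2a, and the 22 higher without include Ccl4, Klrg1 and Zeb2.

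Between conditions there is 1 splenic library each, so ratios are a description. Of 4821 genes with at least 30 UMIs over the 4 libraries, 51 (1.06%) were past 2-fold by genotype the same way under both treatments, 29 higher and 22 lower in Aire-/- mice, and 26 were past 2-fold in opposite directions. By treatment 37 genes (0.767%) were past 2-fold the same way in both genotypes, 10 higher and 27 lower under anti-PD1, and 35 in opposite directions. The median log2 ratios were 0.03 and 0.00 by genotype and 0.02 and 0.00 by treatment. Aire had no UMI in the NK cells of any library, which at the counting floor allows up to 9.05, 13.5, 11.2 and 13.5 CPM had 3 UMIs been seen.

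The genes lowest in Aire-/- spleens rest on single cells. H2-Aa had 103, 98, 8 and 1 UMIs, H2-Ab1 100, 62, 5 and 5, H2-Eb1 95, 74, 11 and 3, and Cd74 406, 324, 73 and 14, all genes of class II antigen presentation. The Aire+/+ libraries were high for all 4 genes, but in each of them 1 cell gave between 91.9 and 97.3% of the UMIs. Plbd1, at 27, 7, 0 and 1 UMIs, also came from 1 cell in each library that had it. Without the other-lineage cells Cd74 had 11, 5, 2 and 14 UMIs and H2-Ab1 3, 4, 2 and 5, and the second genotype ratio of Cd74 rose to 1.35 on the log2 scale from -4.53. On the other side the histone genes Hist1h2ae (2, 1, 24 and 4 UMIs) and Hist1h3e (2, 2, 28 and 5) were highest in Aire-/- isotype, where 1 cell gave 91.7 and 92.9% of them.

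A few genes were spread over many cells. Rnaset2b, the gene of a lysosomal ribonuclease, was chosen for mention after its values were seen, with 104, 72, 31 and 11 UMIs in 55, 35, 14 and 8 cells. It stood at 314, 323, 116 and 49.5 CPM, with log2 ratios Aire-/- over Aire+/+ of -1.44 (95% conditional exact interval -2.06 to -0.85) in isotype-treated mice and -2.71 (-3.77 to -1.78) in those given anti-PD1. It was also lower in Aire-/- mice in the other splenic barcodes, at 97.2, 105, 40.1 and 41.6 CPM, and in tumor NK cells, at 158, 159, 95.1 and 54.3 CPM. Dynlt1b, a dynein light chain gene chosen in the same way, went up, at 30.2, 44.9, 116 and 139 CPM in splenic NK cells, 53.9, 52.7, 140.0 and 122 in the other splenic barcodes and 29.2, 29.1, 59.5 and 81.5 in tumor NK cells. Both genes thus separated the genotypes in 3 cell populations. Of the named genes higher in Aire-/- mice, BC002163 had 5, 7, 26 and 18 UMIs, Ebpl 5, 6, 19 and 18, and Trap1 6, 2, 11 and 11. In all, 14 of the 51 genes had both counting intervals away from 0, but for 6 of them (H2-Aa, H2-Ab1, H2-Eb1, Cd74, Ifi30 and Alox5ap) 1 cell gave at least 94.4% of the UMIs of the Aire+/+ isotype library.

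By treatment the counts were smaller. The named genes higher under anti-PD1 were 4833439L19Rik (7, 14, 5 and 10 UMIs), Cd151 (7, 13, 6 and 11), Nrgn (10, 20, 3 and 5), Phkg2 (6, 12, 9 and 15) and Zkscan14 (5, 10, 6 and 10). Those lower were Mgat5 (16, 2, 13 and 3), Zufsp (12, 2, 13 and 3), Smc2 (16, 4, 20 and 4), Cyb561a3 (15, 3, 23 and 6) and Ccdc82 (19, 6, 14 and 3). None of the 10 reached 30 UMIs in a library, and 1 cell gave 65.2% of the Cyb561a3 UMIs in Aire-/- isotype and 50% of the Nrgn UMIs in Aire+/+ anti-PD1. Of the 37 genes 3 had both intervals away from 0. Those 3, named after their values were seen, were Slc25a4 (13, 19, 9 and 18 UMIs), the acetyltransferase gene Crebbp (26, 7, 22 and 7) and Ccl3 (150, 47, 134 and 55). Ccl3 was the most abundant, with log2 ratios anti-PD1 over isotype of -1.10 in Aire+/+ and -1.02 in Aire-/- mice, both isotype libraries above both anti-PD1 libraries. But 1 cell gave 28.7, 12.8, 47.8 and 12.7% of its UMIs, and with that cell left out of each library the ratios were -0.78 and -0.26.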

How the data were processed

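The authors deposited UMI counts per gene and cell barcode for 16 samples, made with 10x Genomics chemistry from pooled mice (3' by the sample records, while the paper also describes 5' libraries), and the 8 CD45+ libraries were used. Library totals were 12181206, 10987970, 11227539 and 12636201 UMIs in spleen and 38961020, 28780160, 24658741 and 23286592 in tumor. The members and gene lists were chosen with earlier results of these data known. Python 3.11.15 (numpy 2.4.6, scipy 1.17.1, matplotlib 3.10.9) applied the gate, thinned cells to 2000 UMIs with a fixed seed and gave Clopper-Pearson, Poisson and conditional exact ratio intervals at 95%, which cover counting error only. R 4.3.3 ran the edgeR 4.0.16 quasi-likelihood test (TMM, filterByExpr, Benjamini-Hochberg, threshold 0.05) on UMIs summed per library, with condition or library as a block. Klrd1 and other genes are counted in every list that holds them.

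Genes named in the tissue test are the 12 with the largest log2 fold change in each direction among called genes outside the gate that changed alike in 4 conditions and lay above the other barcodes of their library, together with members of 25 lists. For the Cd27 division they are the 5 largest in each direction, and for genotype and treatment the 5 with the largest mean absolute log2 ratio in each direction. A gene at 0 in a library got a floor of 3 UMIs. Alternatives were DESeq2 1.42.0, RLE scaling, no low-count filter, no block, thinned cells, a gate of at least 2 UMIs, Lyz2 at 0, a quality filter (at least 200 genes, at most 20% mitochondrial UMIs), leaving out cells above 2 times the median UMIs (for doublets, with no other doublet filter), leaving out each condition, a minimum of 60 UMIs and centred ratios. Scaling by total UMIs, leaving out other-lineage cells, DESeq2 without its filter on mean counts and the fits of tissue with genotype or treatment were added after seeing the data. The 8 CD8+ libraries were left out since that sort selects T cells.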

Additional observations from a re-analysis of the deposited data

Results flagged for a closer look

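A difference between the genotypes in the contrast of spleen with tumor was tested as an interaction term in edgeR's quasi-likelihood fit, added after seeing the data, with a library per tissue and condition. Of 7280 genes 5 were called at an adjusted p under 0.05 (451 at an unadjusted p under 0.05). The interaction of tissue with treatment called 0 (276 at an unadjusted p under 0.05, lowest adjusted p 0.343), and DESeq2 was not run on either.

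Of the 5, 4 are class II genes. H2-Aa had a log2 difference of -4.19 between Aire-/- and Aire+/+ mice in its spleen over tumor ratio (SE 0.37, adjusted p 7.56e-06). Its levels were 311, 439.6, 29.9 and 4.498 CPM in splenic NK cells and 438, 655, 607 and 305 in tumor NK cells, so both Aire-/- splenic libraries were low. H2-Ab1 had a difference of -3.49 (adjusted p 0.000164), H2-Eb1 of -3.24 (adjusted p 4.21e-05) and Cd74 of -2.42 (adjusted p 4.18e-05), each lower in spleen over tumor in 2 of 2 Aire-/- conditions than in either Aire+/+ condition. In each Aire+/+ spleen 1 cell gave at least 91.9% of the UMIs of these genes. With other-lineage cells left out of both tissues, Cd74 had a difference of 1.30 (adjusted p 0.811) and H2-Ab1 of 0.35 (adjusted p 0.986). H2-Aa, with 4, 3, 1 and 1 splenic UMIs left, and H2-Eb1, with 5, 0, 2 and 3, were then too low to test, and 1 gene was called, Cst3 (1.86, adjusted p 0.0289).

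The last is Hist1h1e, a linker histone gene, with a difference of 1.999 (adjusted p 0.0155), higher in spleen over tumor in 2 of 2 Aire-/- conditions. It stood at 241, 175, 751 and 324 CPM in spleen and 109, 141, 73.9 and 70.6 in tumor, with the Aire-/- isotype spleen highest. Without the other-lineage cells the difference was 1.86 (adjusted p 0.0823), and without the Aire+/+ anti-PD1 condition it was 1.65 (adjusted p 0.752), neither called. Leaving out the conditions in turn, in the order used above, called 6, 6, 9 and 52 genes, each fit then having 1 condition in a genotype whose spread was taken to be like the others. Without Aire-/- anti-PD1 the count thus rose more than 1.5-fold, as it did without Aire-/- isotype.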

How the results depend on the processing

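Between spleen and tumor, the counts of 2823 called genes, 1305 higher in spleen and 1518 higher in tumor, stayed within 1.5-fold under RLE scaling (2815), no low-count filter (3181), no block (2897), a gate of at least 2 UMIs (2766), Lyz2 at 0 (2717), the quality filter (2831), leaving out high-UMI cells (2044) or other-lineage cells (2633), and each condition left out (2235 to 2584). DESeq2 called 1848, 742 of them higher in spleen. Scaling by total UMIs gave 2564 higher in spleen and 877 higher in tumor, by construction, since it shifts all values by 0.36 on the log2 scale. Thinning cells to 2000 UMIs, which leaves fewer UMIs, called 1010, with 467 higher in spleen and 543 in tumor. Among the called genes named or on the lists, values that changed sign were Klrd1 under total scaling (0.0518) and thinning (0.0276), Il2rb (0.0577) and Il2rg (0.0574) under total scaling, Ccl3 under thinning (-0.22) and without high-UMI cells (-0.28), Fasl without high-UMI cells (-0.0379) and Stmn1 likewise (0.16). The cause was not tested. Genes not called could change sign as well, such as Id2 under total scaling (0.29, called). Over all genes named and on the lists and all alternatives, 2995 values kept direction and call, 135 lost the call, 42 gained one and 8 reversed.

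For the Cd27 division, RLE scaling (65 called) and no filter (77) kept the total of 69 within 1.5-fold. Outside that range, DESeq2 called 19 (14 higher with a Cd27 UMI, 5 without) with an adjusted p for 226 of 2085 genes, and 12 (7 and 5) with its filter on mean counts off, as added after seeing the data, no library block 37 (25 and 12), leaving out other-lineage cells 110 (79 with), and no filter gave 38 higher without. With each library left out the total ran from 20 to 42, higher with from 10 to 31 and higher without from 8 to 11, with fewer libraries in each fit. For the rest the cause was not tested. The thinned division was not run, since fewer than 10 cells of a class were left in a library.

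The splenic shares moved when Cd79a barcodes left the denominator, to 11.6, 7.62, 7.77 and 7.60%, by construction, and stayed within their intervals under the other 4 alternatives. Of the genotype counts (51, with 29 higher and 22 lower), the minimum of 60 UMIs gave 11 (2 and 9), thinning 20 (6 and 14), and leaving out other-lineage cells 19 higher. Of the treatment counts (37, with 10 and 27), the minimum of 60 UMIs gave 2 (0 and 2), thinning 19 with 9 lower, and centring 6 higher. Both the higher minimum and thinning leave fewer genes to count. The first genotype ratio of Cd74 turned to 2.97 with a gate of at least 2 UMIs, which drops the Aire+/+ isotype cell with most of its UMIs and keeps the Aire-/- isotype one, and the second to 1.35 without other-lineage cells, which drops the Aire+/+ anti-PD1 cell with most of its UMIs.

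Depth limits what can be seen here. A splenic NK sum of 222310 to 331526 UMIs puts the floor of 3 UMIs at 9.05 to 13.5 CPM, so levels near or below it rest on few UMIs. Between 49 and 81 cells per library give wide intervals on shares, and 1 cell can carry most UMIs of a gene. With 1 pooled library per condition, no condition has a replicate of its own.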
